A study of Mus musculus with 6 samples.

Results

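A set of 10 genes of liver scarring and extracellular matrix were followed: the metalloproteinase inhibitor genes Timp1 and Timp2, the collagen genes Col1a1, Col1a2, Col3a1 and Col4a1, the proteoglycan genes Lum and Dcn, the actin gene Acta2 and the matrix glycoprotein gene Sparc. They were taken by gene symbol from the annotation of the bead array. All 10 were on the array, of 19057 named genes in all, with 23 probes between them. Acta2 had 6 probes, Dcn 4, Sparc 3, and Timp1, Col3a1 and Lum 2 each, while the other 4 genes had 1.

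RNA came from livers of C57BL/6J mice aged 18 weeks, kept in a 12 h light and 12 h dark cycle and fed freely; the labels do not state their sex. The NOB arm ate a high-fat diet and was given oral nobiletin, a citrus flavone, over 10 weeks, with a dose of 200 mg/kg on alternate days. The HFD arm ate the high-fat diet with vehicle, and the RC arm ate regulatory chow, as the labels spell it, with vehicle. Each arm was sampled at zeitgeber time (ZT) 14 and at ZT2, which are 2 h after lights off and 2 h after lights on. Each of the 6 arrays held RNA pooled from 4 mice, so no group had a replicate array, and the spread between mice cannot be seen. In bulk liver RNA the data cannot separate fewer cells of a type from less RNA per cell.

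The extracellular matrix of the liver is laid down mainly by hepatic stellate cells and portal fibroblasts. When stellate cells are activated, they express contractile actin, secrete fibrillar collagens and release inhibitors that keep metalloproteinases from degrading the matrix. Transforming growth factor beta is the classic signal for this change. Basement membrane collagen, by contrast, is also made by endothelial cells.

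Timp1 passed the test below in HFD against RC and in NOB against HFD, and Timp2 in neither. The 250 bases before their start sites are shown so that both promoters can be read beside them, with the promoter of Sparc beside them as one that holds neither of their motifs. The sequences are from RefSeq on GRCm38.p6, read 5′ to 3′ on the gene's own strand. Capitals mark matches to the motifs searched on both strands.
Timp1, chrX:20869916-20870165, plus strand: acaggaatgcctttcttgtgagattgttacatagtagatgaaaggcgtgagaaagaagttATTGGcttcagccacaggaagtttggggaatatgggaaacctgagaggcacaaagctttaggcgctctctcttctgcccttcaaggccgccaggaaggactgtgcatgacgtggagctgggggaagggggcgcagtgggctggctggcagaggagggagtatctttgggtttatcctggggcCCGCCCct
Timp2, chr11:118355412-118355661, minus strand: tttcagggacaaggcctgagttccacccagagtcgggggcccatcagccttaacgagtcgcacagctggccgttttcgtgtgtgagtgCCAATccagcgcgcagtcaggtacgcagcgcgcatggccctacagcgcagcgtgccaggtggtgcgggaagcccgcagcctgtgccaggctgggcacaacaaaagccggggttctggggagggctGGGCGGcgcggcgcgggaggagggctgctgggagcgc
Sparc, chr11:55420081-55420330, minus strand: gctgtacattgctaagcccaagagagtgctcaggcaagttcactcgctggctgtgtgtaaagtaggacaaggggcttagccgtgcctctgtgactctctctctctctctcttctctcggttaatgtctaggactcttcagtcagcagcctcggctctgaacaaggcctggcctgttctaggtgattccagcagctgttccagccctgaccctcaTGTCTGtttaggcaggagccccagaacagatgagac

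Promoters were matched for 7 of the 10 genes: Timp1, Timp2, Col1a2, Col3a1, Col4a1, Acta2 and Sparc. Both inhibitor promoters held a CCAAT box and a GC box (GGGCGG), which 33.8% and 32.7% of all 32851 promoters of this length also held. The CCAAT box also lay in the Col1a2 and Col4a1 windows, and the GC box in that of Col1a2. The SMAD motif CAGACA was in 4 of the 7, those of Sparc, Acta2, Col1a2 and Col3a1, against 17.1% of all promoters. The TATA box TATAAA was in that of Col3a1, against 12.4% of all. The AP-1 site TGANTCA (6.75% of all) and its variant TGAGTAA (2.25%) were in 0 of these 7 windows. Such matches describe the letters of the window.

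The platform gave each probe a bead signal and a detection p against negative-control probes of the same array. Signals were background-corrected, quantile normalized and taken to log2, and these normalized levels are used below. A probe was called detected at a detection p under 0.01. Of the 45281 probes, 28.1% to 32.0% were detected on each array, and median raw signals lay between 57.5 and 62.4. Of the 23 probes of the matrix genes, 8 were detected on all 6 arrays, 17 on at least 2, 2 on a single array and 4 on none. Genes with a probe detected on at least 2 arrays were tested, 8561 in all and 9 of these 10. The exception was Col1a2. Timp1 and Col1a1 passed this filter only through the HFD arrays, so their entry already required a high level there.

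Each pair of arms was compared by a two-sided limma test on a model with an arm term and a time term, and with Benjamini-Hochberg adjustment over all 8561 genes. Since p-values then rest on 1 pool per time, they measure the spread between these pools only. An arm difference that depended on the time counted as part of that spread. The brightest probe of each gene stood for it.

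**Figure D1:**
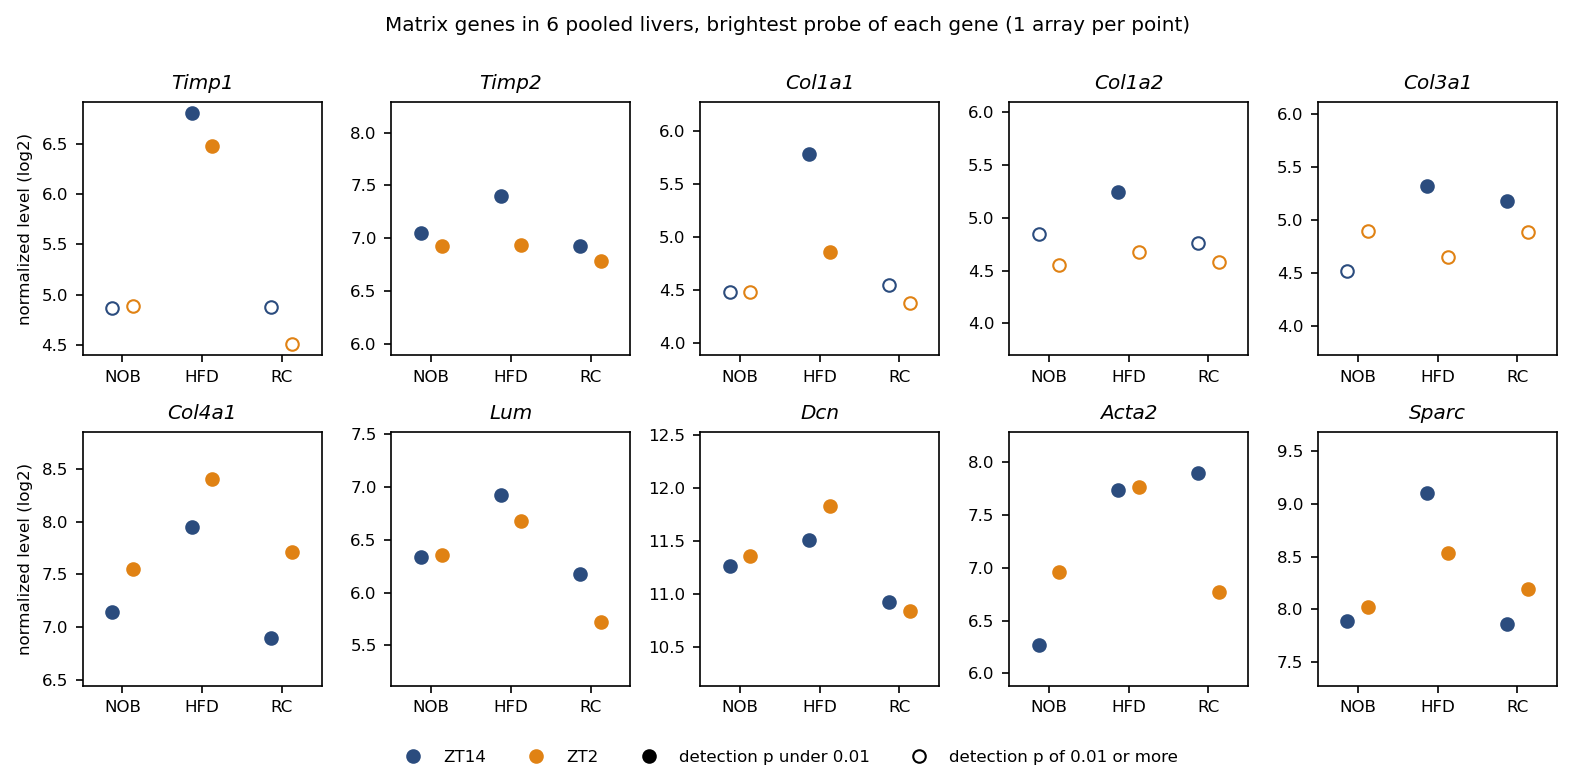
Normalized log2 level (vertical axis) of the brightest probe of each of the 10 genes on the 6 arrays, by arm (horizontal axis: NOB, HFD, RC) and time, with open points where the probe was not detected. Timp1 is filled only in the HFD pools, while Lum and Dcn lie lowest in RC, between in NOB and highest in HFD.

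Of the 9 tested matrix genes 4 rose on the high-fat diet against chow, and 0 fell: Timp1, Col4a1, Lum and Dcn. Of all 8561 genes, 4.49% rose and 2.34% fell, 6.82% together. The median difference of the 9 was 0.79 on the log2 scale, or 0.79 with undetected levels at their bounds, beside -0.00 for all genes tested. The arrays of HFD and RC did not overlap for 7 of the 9, all higher in HFD, and 0 were lower without overlap (26.4% and 25.2% of all genes). These medians describe genes that passed the filter, which Timp1 and Col1a1 did through the arm where they were high. Of the 17 detected probes of these 9 genes, 15 lay above 0 and 2 below over both times. Within the times 12 were above 0 at both, 1 was below at both and 4 differed in sign. Probes of the same gene read the same pools, so they are not separate support.

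Timp1 encodes a secreted inhibitor of matrix metalloproteinases and lies on chromosome X at 20870166 to 20874737 (GRCm38.p6), inside another annotated gene. On its brighter probe (ILMN_3103896) the raw signal was 70.3 and 71.7 in NOB at ZT14 and ZT2, 155.6 and 146.5 in HFD, and 65.9 and 61.0 in RC. Both HFD pools stood apart from all 4 others, which lay near background. The normalized levels were 4.87 and 4.89 in NOB, 6.80 and 6.48 in HFD, and 4.88 and 4.52 in RC. Its detection p was 0 on both HFD arrays, 0.0203 and 0.0150 on the NOB arrays and 0.0246 and 0.147 on the RC arrays. Timp1 was therefore at least 2.96-fold higher in HFD than in RC (fitted log2 difference 1.94 ± 0.16 SE, limma adjusted p = 0.00304). The bound sets the HFD mean against the lowest detected level or the probe's own level in RC, whichever is higher. The other Timp1 probe (ILMN_2769918) read 61.0 and 61.7 in NOB, 141.9 and 146.2 in HFD, and 55.4 and 60.1 in RC, so the probes gave the same picture. Without the HFD array of ZT14 the Timp1 call on the diet ended (adjusted p = 0.0598), with the difference at 1.86.

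Timp2, which inhibits metalloproteinases and also takes part in activating the one encoded by Mmp2, did not pass in any comparison. Its levels were 7.05 and 6.93 in NOB at ZT14 and ZT2, 7.40 and 6.93 in HFD, and 6.92 and 6.79 in RC. The HFD pool of ZT14 was the highest, the other HFD pool lay among the NOB pools, and the RC pools were lowest. The HFD minus RC difference was 0.31 ± 0.16 (limma adjusted p = 0.279), and Timp2 was detected on every array.

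Lum and Dcn encode lumican and decorin, small leucine-rich proteoglycans that bind collagen fibrils and govern their spacing. Lum lay at 6.34 and 6.35 in NOB at ZT14 and ZT2, 6.92 and 6.68 in HFD, and 6.17 and 5.72 in RC. On this brightest probe the arms did not overlap: HFD pools were highest, NOB pools between and RC pools lowest. Lum was 1.80-fold higher in HFD than in RC (0.85 ± 0.16 SE, limma adjusted p = 0.0339), with 0.75 at ZT14 and 0.96 at ZT2. Its dimmer probe, detected on 4 arrays, gave 0.50. There NOB and HFD overlapped, with NOB at ZT14 (5.33) above HFD at ZT2 (5.21). Dcn read 11.26 and 11.36 in NOB, 11.51 and 11.82 in HFD, and 10.92 and 10.84 in RC, in the same order of arms. Dcn was 1.73-fold higher in HFD than in RC (0.79 ± 0.16 SE, limma adjusted p = 0.0368), with 0.59 at ZT14 and 0.99 at ZT2. Of its 4 probes 3 were detected, and they ranged from 0.65 to 0.86, while the last was detected on no array.

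Of the calls on the diet, that of Dcn ended whichever of the 6 arrays was left out (adjusted p from 0.0576 to 0.270). Lum lost its call without any of the 4 HFD and RC arrays (adjusted p from 0.0628 to 0.254). Its call also ended when the probes of a gene were averaged (adjusted p = 0.0513). In the authors' processed intensities the calls of Col4a1, Lum and Dcn ended, at adjusted p from 0.0705 to 0.0810.

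Among the collagens, Col4a1 rose. It encodes a chain of type IV collagen, the network of basement membranes. Its levels were 7.15 and 7.55 in NOB at ZT14 and ZT2, 7.95 and 8.40 in HFD, and 6.90 and 7.72 in RC. Both HFD pools lay above the other 4, whose NOB and RC values overlapped. Col4a1 was 1.83-fold higher in HFD than in RC (0.87 ± 0.16 SE, limma adjusted p = 0.0310), with 1.05 at ZT14 and 0.68 at ZT2. This call ended when the HFD array of ZT14 (adjusted p = 0.267) or ZT2 (0.176) was dropped, and likewise for the RC array of ZT14 (0.133). Col4a2, the partner chain, whose gene overlaps the start of Col4a1 on chromosome 8, lay at 0.45 ± 0.19 and did not pass (adjusted p = 0.208).

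The fibrillar collagens lay near background. Col1a1, a chain of type I collagen, had raw signals of 61.6 and 62.4 in NOB at ZT14 and ZT2, 97.8 and 73.9 in HFD, and 60.0 and 57.4 in RC. It was detected on both HFD arrays and on none of the other 4. Col1a1 was at least 1.19-fold higher in HFD than in RC and did not pass (fitted difference 0.86 ± 0.23, limma adjusted p = 0.0800). At ZT14 it was at least 1.59-fold higher, and at ZT2 its HFD level did not clear the lowest detected level of the RC array. Col1a2, the other type I chain, was detected on the HFD array of ZT14 alone, with raw signals of 69.9 and 64.2 in NOB, 79.8 and 69.1 in HFD, and 63.9 and 62.4 in RC, and it was not tested. Col3a1, the type III collagen chain, was detected at ZT14 in HFD and RC on one probe and nowhere on the other. On the detected probe its levels were 4.52 and 4.90 in NOB, 5.32 and 4.65 in HFD, and 5.18 and 4.88 in RC, and the difference between HFD and RC was -0.05 ± 0.24 (adjusted p = 0.926).

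Sparc encodes osteonectin, a collagen-binding glycoprotein of remodelling matrix. Its levels were 7.89 and 8.02 in NOB at ZT14 and ZT2, 9.10 and 8.54 in HFD, and 7.86 and 8.20 in RC. On this probe both HFD pools lay above all others, by more at ZT14 than at ZT2 against RC (1.24 and 0.34). The difference over both times was 0.79 ± 0.23 and did not pass (limma adjusted p = 0.0899). Its other probes gave 0.92 and 0.46, and the dimmer of them (ILMN_1243212) disagreed between times, at 1.22 for ZT14 and -0.30 for ZT2. When every detected probe was tested on its own, the one at 0.92 passed (limma adjusted p = 0.04996 over 14416 probes). In that alternative fit 908 of the 14416 probes passed. The brightest Sparc probe and ILMN_1243212 did not (limma adjusted p = 0.0847 and 0.422).

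Acta2 encodes smooth muscle actin, the textbook marker of activated stellate cells, and is also made by vascular smooth muscle. Its brightest probe (ILMN_2693895) read 6.27 and 6.96 in NOB at ZT14 and ZT2, 7.74 and 7.77 in HFD, and 7.90 and 6.77 in RC. The RC pool of ZT14 was the highest of the 6, so HFD and RC overlapped. HFD minus RC was -0.16 at ZT14 and 0.996 at ZT2. Over both times the difference was 0.42 ± 0.38 (limma adjusted p = 0.547). One RC array decided its sign: the difference was 1.16 (adjusted p = 0.0901) with the ZT14 one dropped and -0.33 (adjusted p = 0.454) with the ZT2 one dropped.

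The probes of Acta2 disagreed. A second probe (ILMN_2923445), detected on 4 arrays, ran with the brightest one at 4.81 and 5.23 in NOB, 5.43 and 5.47 in HFD, and 5.85 and 4.96 in RC, and gave 0.04 for HFD minus RC. The probe ILMN_2710353, detected in RC at ZT14 alone, also had its highest level there. The probe ILMN_2710354, detected on 5 arrays, stayed between 4.96 and 5.32 and gave -0.30. Its raw signals were 73.0 to 76.5, near background, where the lowest detected level by array lay at 4.85 to 5.12. Its flat course and its sign are therefore uncertain. The remaining 2 probes were detected nowhere. Across the 6 arrays, which share their normalization, ILMN_2923445 and ILMN_2710353 correlated with the brightest probe at Pearson r = 0.938 and 0.884, and ILMN_2710354 at r = 0.00907. No probe sequence was used here, so overlap with other actin genes was not examined.

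**Figure D2:**
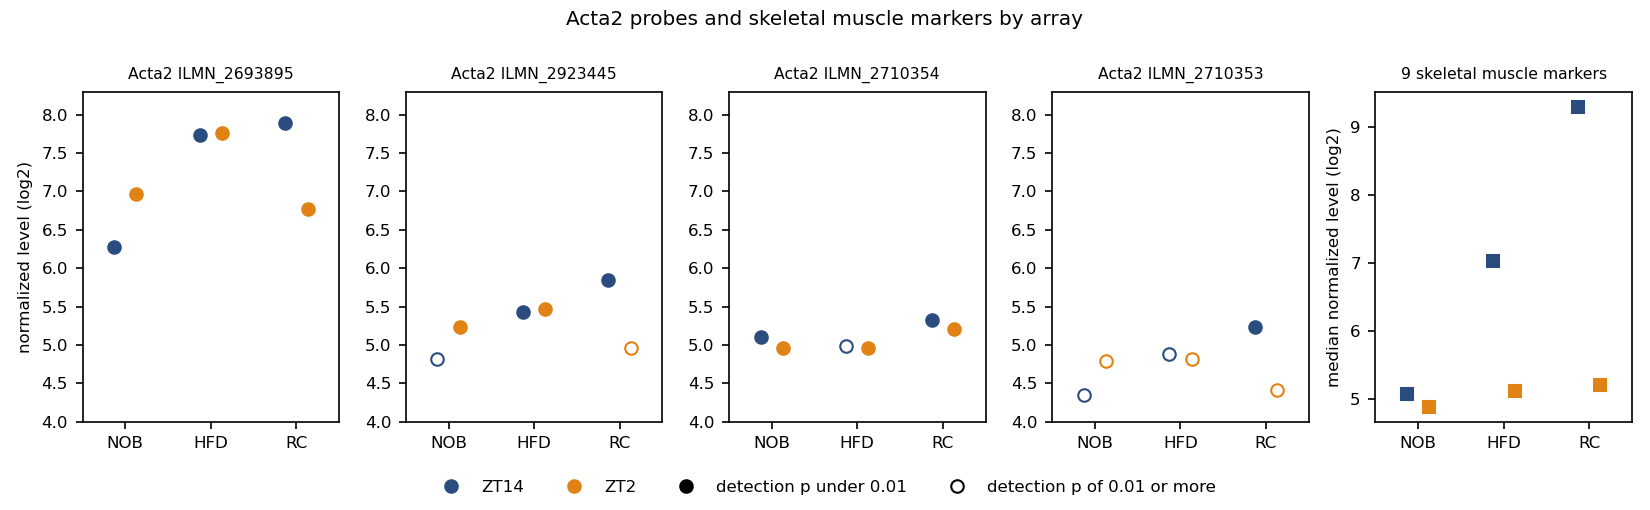
Normalized log2 level of the 4 Acta2 probes detected on at least 1 array (first 4 panels) and median normalized log2 level of 9 skeletal muscle markers (last panel, own axis) on the 6 arrays, by arm and time. Both the brightest Acta2 probe and the muscle markers have their highest value in RC at ZT14, while the probe ILMN_2710354 stays between 4.96 and 5.32, near background.

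Skeletal muscle genes differed between the pools. Of 12 muscle markers 9 were tested, and their summed linear level was 298 and 277 in NOB at ZT14 and ZT2, 1074 and 347 in HFD, and 5515 and 331 in RC. Acta1, the skeletal muscle actin, read 4.71 and 4.88 in NOB, 7.58 and 5.79 in HFD, and 10.12 and 4.98 in RC. The RC and HFD pools of ZT14 were thus the muscle-rich ones, and at ZT2 the 3 sums lay close together. None of these 9 passed limma for HFD against RC (1 at an unadjusted p under 0.05, as had 24.2% of all genes), the largest difference being Tnnc2 at -1.27 ± 0.70 (adjusted p = 0.322). Of 10 vascular smooth muscle markers 3 were tested and 0 passed limma (0 at an unadjusted p under 0.05), the largest being Mylk at 0.29 ± 0.19 (adjusted p = 0.402), with sums of 910 and 1067 in NOB, 1137 and 1096 in HFD, and 1066 and 798 in RC. Their part in the Acta2 values was not tested.

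Nobiletin against vehicle on the high-fat diet asked which of these differences the compound altered. One of the 9 genes, Timp1, fell and 0 rose, where 0.128% of all 8561 genes fell and 0.035% rose. Between NOB and HFD 7 of the 9 did not overlap, all lower in NOB, and 0 were higher without overlap (18.4% and 17.8% of all genes). All 9 fitted differences lay below 0, with a median of -0.82, or -0.45 with undetected levels at their bounds, beside 0.01 for all genes. The HFD pools are shared with the comparison of HFD with RC, so a high HFD value enters both with opposite sign. Timp1 and Col1a1 had passed the filter only through HFD, so these counts and medians include genes taken in for a high level there. With no filter on dim probes the Timp1 call ended (limma adjusted p = 0.168).

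Timp1 was at least 3.13-fold lower in NOB than in HFD (fitted difference -1.76 ± 0.16 SE, limma adjusted p = 0.0152). It was undetected on both NOB arrays, and the bounds were at least 3.29-fold lower at ZT14 and at least 2.97-fold lower at ZT2. The other Timp1 probe was also undetected on both NOB arrays and detected on both HFD arrays. Dropping any of the 4 NOB or HFD arrays ended the call, with adjusted p at 0.0717 and 0.0591 for the NOB arrays of ZT14 and ZT2 and at 0.356 and 0.221 for the HFD arrays. In the authors' processed intensities, set to a floor of 16, the difference was -2.39 and limma's adjusted p 0.0793.

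For the other 8 genes the nobiletin difference did not pass limma. Acta2 lay at -1.13 ± 0.38 (adjusted p = 0.439), with -1.46 at ZT14 and -0.80 at ZT2, and both NOB pools were below both HFD pools. This is its brightest probe alone: the other 2 tested probes gave -0.43 and 0.06, so they differed in sign. The value of 0.06 is from ILMN_2710354, which lay near background. The mean over probes gave -0.50 (limma adjusted p = 0.651). In the same comparison 8 of the 9 tested skeletal muscle markers lay below 0 and 1 above. Their median was -1.17, or -1.08 with undetected levels at their bounds, and 0 passed limma (0 at an unadjusted p under 0.05). The part of muscle in this Acta2 difference was not tested. Sparc lay at -0.86 ± 0.23 (adjusted p = 0.333), with all 3 probes below 0, from -0.88 to -0.51. Col4a1 lay at -0.82 ± 0.16 (adjusted p = 0.197) and was similar at both times, at -0.80 and -0.85. Col1a1, undetected in NOB, was at least 1.25-fold lower (fitted -0.84 ± 0.23, adjusted p = 0.371). The proteoglycan genes Lum and Dcn lay at -0.45 ± 0.16 (adjusted p = 0.478) and -0.36 ± 0.16 (adjusted p = 0.595). Timp2 lay at -0.18 ± 0.16 (adjusted p = 0.845). Col3a1 was undetected on both NOB arrays and 1 HFD array, so no fold is given. At an unadjusted p under 0.05, 6 of the 9 genes counted, and 8.77% of all genes did.

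**Figure D3:**
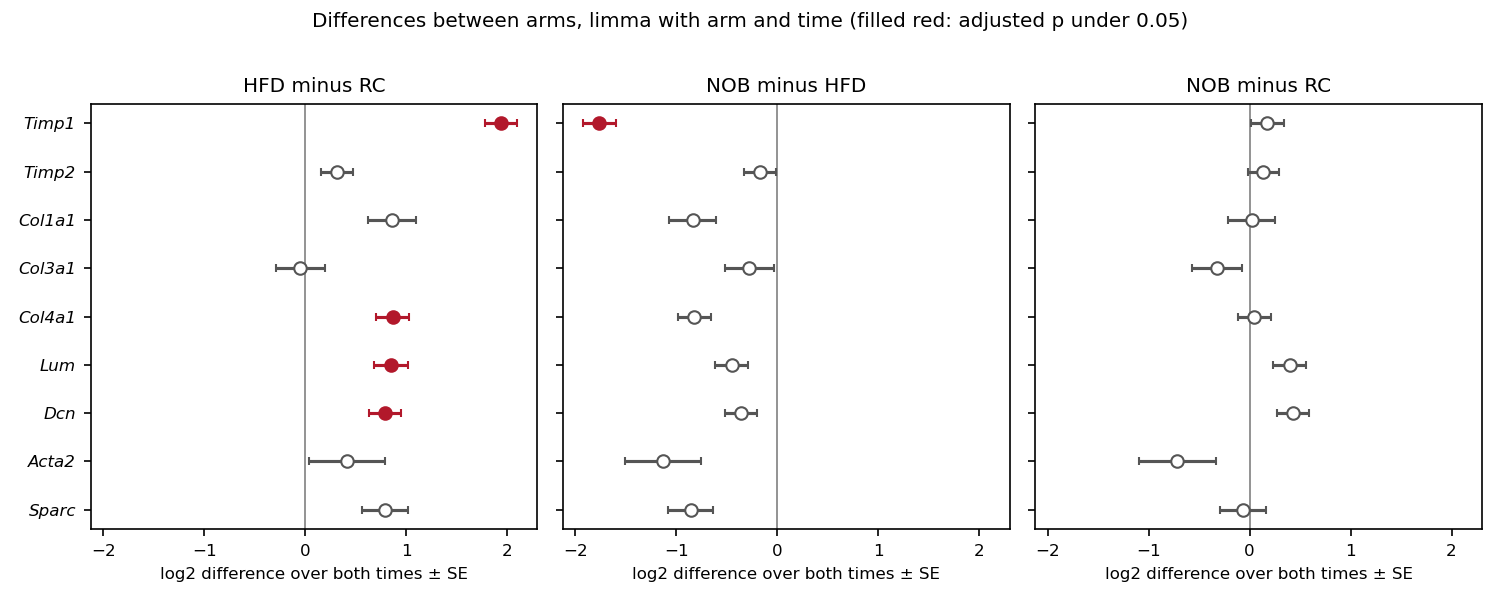
Fitted log2 difference over both times with its SE (horizontal axis) for the 9 tested genes in HFD minus RC, NOB minus HFD and NOB minus RC, filled red where limma's adjusted p was under 0.05. Timp1 is red at 1.94 and at -1.76. Timp1 and Col1a1 were undetected in NOB and in RC, so their points in NOB minus RC rest wholly on undetected levels, and those in the other panels partly.

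Nobiletin-fed livers were also set against chow livers, which shows what stood apart from chow under diet and compound together. None of the 9 genes passed limma (2 at an unadjusted p under 0.05, as had 15% of all genes), where 0.993% of all genes did, 0.526% higher and 0.467% lower. Timp2, Lum and Dcn did not overlap, all 3 higher in NOB, and 0 were lower without overlap (22.8% and 19.2% of all genes). The differences ranged from -0.72 for Acta2 to 0.43 for Dcn, with a median of 0.04. Dcn (0.43 ± 0.16, adjusted p = 0.279) and Lum (0.40 ± 0.16, adjusted p = 0.327) had the 2 lowest p-values, and in both the NOB pools lay above the RC pools. Col4a1 at 0.04 ± 0.16, Sparc at -0.07 ± 0.23 and Timp2 at 0.14 ± 0.16 lay close to 0. Timp1 and Col1a1 were undetected in both arms, so no fold is given. Acta2 at -0.72 ± 0.38 (adjusted p = 0.434) split by time, at -1.63 for ZT14 and 0.19 for ZT2, and it passed once the RC array of ZT2 was dropped (-1.46, limma adjusted p = 0.0486).

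Dark was set against light over the 3 arms. None of the 9 genes passed limma for ZT14 minus ZT2 (1 at an unadjusted p under 0.05, as had 10.9% of all genes), and 0.0234% of all genes did. Col4a1 had the lowest p, at -0.56 ± 0.13 (adjusted p = 0.227), and its level at ZT14 was below that at ZT2 by 0.40 in NOB, 0.45 in HFD and 0.82 in RC. Sparc was higher at ZT14 in HFD by 0.56, and lower in NOB by 0.13 and in RC by 0.34. For Acta2 the times lay 0.69 apart in NOB and 0.03 apart in HFD, with ZT14 lower, and 1.13 apart in RC, with ZT14 higher.

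Without a test, the arms were also compared at each time at a threshold of 1.5-fold. An undetected level was set to its bound, and a pair with both levels undetected was not counted. At ZT14, 6 of the 9 genes were that much higher in HFD than in RC (9.77% of all genes): Timp1, Col1a1, Col4a1, Lum, Dcn and Sparc. At ZT2 there were 5 (6.7% of all): Timp1, Col4a1, Lum, Dcn and Acta2. Against HFD, NOB was that much lower at ZT14 for 5 (3.25% of all), namely Timp1, Col1a1, Col4a1, Acta2 and Sparc, and at ZT2 for 3 (3.8% of all), namely Timp1, Col4a1 and Acta2. Timp1 and Col4a1 appeared in all 4 of these sets. The sets are not separate support, since the HFD array of each time enters both comparisons. A high HFD value thus counts in both, and Timp1 and Col1a1 had passed the filter only through the HFD arrays. Against RC, NOB was that much lower at ZT14 for Acta2 (5.53% of all) and that much higher at ZT2 for Lum (3.27% of all). Col3a1, undetected in NOB at ZT14, was there at least 1.18-fold lower than in HFD and at least 1.07-fold lower than in RC.

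Other genes of the matrix were taken from 5 lists. In HFD against RC, 11 of 68 tested genes rose and 1 fell (4.49% and 2.34% of all genes), and the median was 0.25. In NOB against HFD 0 of the 68 passed limma, where 0.164% of all genes did, and 47 lay below 0. Their median there was -0.20, beside 0.01 for all genes. At an unadjusted p under 0.05 there were 21, beside 8.77% of all genes. Both comparisons share the HFD pools, so a high HFD value enters them with opposite sign. In HFD against RC 50 of the 68 had lain above 0, so the values below 0 under nobiletin are in part built in. Among the genes named below, Col15a1, Fbln2, Mmp12 and Mmp13 were detected in HFD alone, so they passed the filter through the arm where they were high. More genes were undetected in 1 of the arms compared. In HFD minus RC a bound was used for 2 of 9 other collagens and 3 of 14 folding and crosslinking genes. It was used for 3 of 17 glycoproteins and proteoglycans, 3 of 12 proteases and inhibitors, and 0 of 16 signalling genes. Medians are also given with such genes at their bounds. Names were chosen as those that passed, or the largest difference where none did.

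**Figure D4:**
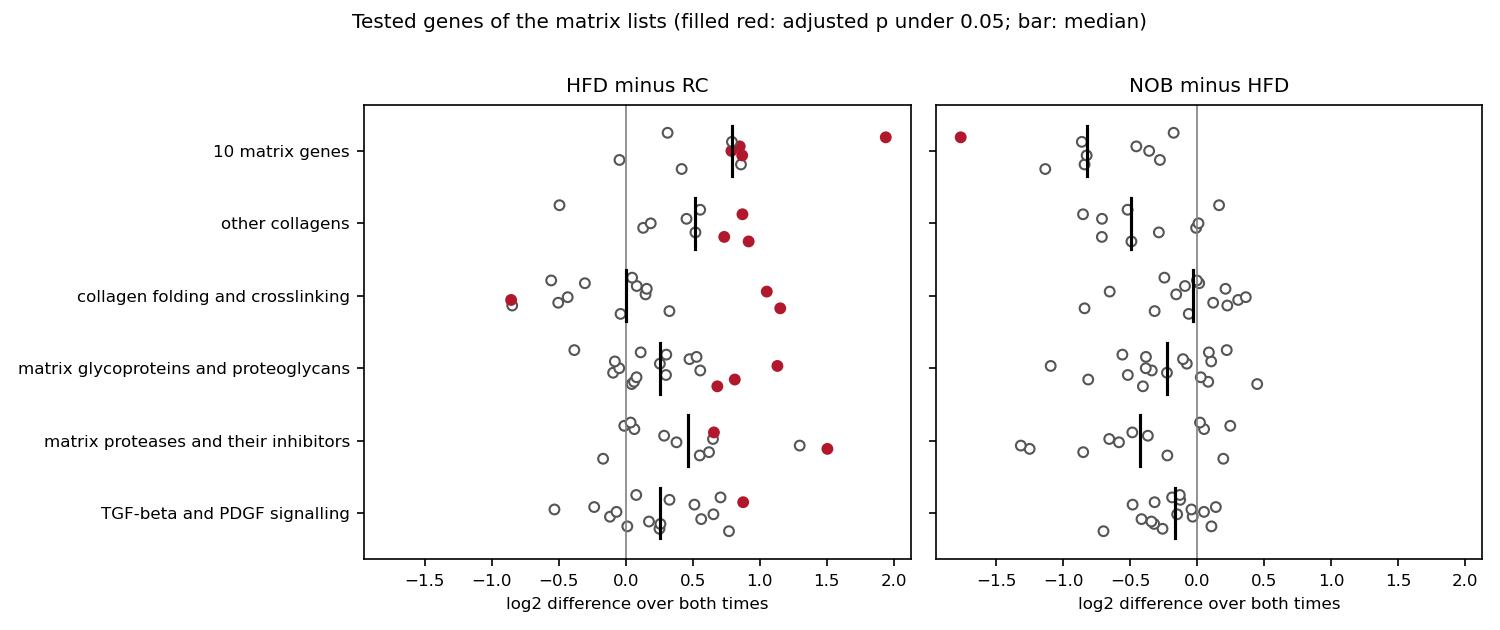
Fitted log2 difference over both times (horizontal axis) of each tested gene in the 10 matrix genes and 5 further matrix lists, for HFD minus RC and NOB minus HFD, with the list median as a bar and red points where limma's adjusted p was under 0.05. In HFD minus RC 4 of the 9 tested matrix genes and 12 of the 68 others are red, and in NOB minus HFD only Timp1.

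Of the other collagens 9 of 23 on the array were tested, 3 rose and 0 fell on the diet, with a list median of 0.52 (0.45 with bounds). Col14a1, a fibril-associated collagen, was at 0.92 ± 0.21 (limma adjusted p = 0.0493). Col5a1, a chain that starts collagen fibrils, was at 0.87 ± 0.16 (adjusted p = 0.0277). Col15a1, a basement membrane collagen undetected in RC, was at least 1.11-fold higher (adjusted p = 0.0404). Under nobiletin against vehicle the largest difference was that of Col5a1, at -0.85 ± 0.16 (adjusted p = 0.179).

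The enzymes that fold and crosslink collagen went both ways, with 2 that rose and 1 that fell of 14 tested and a median of 0.00 (-0.00 with bounds). Loxl1, a lysyl oxidase that crosslinks elastin and collagen, was at 1.15 ± 0.25 (limma adjusted p = 0.0465), and Pcolce, an enhancer of procollagen cleavage, at 1.05 ± 0.20 (adjusted p = 0.0343). P4ha1, a prolyl hydroxylase subunit needed for a stable triple helix, was undetected in HFD and at least 1.55-fold lower (adjusted p = 0.0372). Loxl1 also had the largest nobiletin difference, at -0.84 ± 0.25 (adjusted p = 0.391).

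Matrix glycoproteins and proteoglycans gave 3 that rose and 0 that fell of 17 tested, with a median of 0.25 (0.11 with bounds). Nid1, which links laminin to type IV collagen in basement membranes, was at 1.13 ± 0.15 (limma adjusted p = 0.0101). It read 6.37 and 6.20 in NOB at ZT14 and ZT2, 7.43 and 7.32 in HFD, and 6.21 and 6.28 in RC, so the HFD pools stood about as far above NOB as above RC. Its nobiletin difference of -1.09 ± 0.15 did not pass (adjusted p = 0.0715). Bgn, which encodes the proteoglycan biglycan, was at 0.68 ± 0.15 (adjusted p = 0.0493), and Fbln2, a fibulin undetected in RC, was at least 1.37-fold higher (adjusted p = 0.0383).

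Among proteases and their inhibitors 2 rose and 0 fell of 12 tested, with a median of 0.47 (0.45 with bounds). Mmp12, the macrophage elastase, was undetected in RC and NOB, and it was at least 1.65-fold higher in HFD than in RC (limma adjusted p = 0.00929). Mmp24, a membrane-bound metalloproteinase, was at 0.66 ± 0.14 (adjusted p = 0.0433). Mmp13, a collagenase, did not pass, at 1.96-fold higher or more (adjusted p = 0.0507), and its nobiletin difference, the largest of the list, was at least 2.08-fold lower (adjusted p = 0.254). In TGF-beta and PDGF signalling, whose median was 0.26, 1 of 16 rose, the TGF-beta-induced matrix gene Tgfbi at 0.88 ± 0.15 (adjusted p = 0.0240). The ligand gene Tgfb1 at 0.51 ± 0.22 did not pass (adjusted p = 0.220). Ccn2, a secreted target of the pathway, had the list's largest nobiletin difference at -0.70 ± 0.21 (adjusted p = 0.401).

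Markers of the cells that make or surround the matrix were read in the same fit, where 4.49% of all genes rose and 2.34% fell on the diet. Of 9 tested stellate cell markers of 13 on the array, 2 rose on the diet, Colec11 at 0.81 ± 0.18 and Cygb at 0.78 ± 0.14 (limma adjusted p = 0.0475 and 0.0290), and the summed linear level was 2410 and 2266 in NOB at ZT14 and ZT2, 2446 and 2658 in HFD, and 1824 and 1867 in RC. Of 3 tested portal fibroblast markers of 8, Entpd2 rose (0.91 ± 0.15, adjusted p = 0.0201), with sums of 150 and 127 in NOB, 190 and 171 in HFD, and 117 and 117 in RC. None of 11 tested endothelial markers of 12 passed limma (3 at an unadjusted p under 0.05, beside 24.2% of all genes). The largest difference was Lyve1 at 0.77 ± 0.21 (limma adjusted p = 0.0780). Their sums were 4813 and 5242 in NOB, 4862 and 4666 in HFD, and 4228 and 4730 in RC.

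Of 10 tested macrophage markers of 12, Gpnmb (at least 7.14-fold), Lgals3 (2.11 ± 0.23) and Trem2 (1.46 ± 0.16) rose on the diet (limma adjusted p from 0.000387 to 0.00686), with sums of 3162 and 2743 in NOB, 2948 and 3500 in HFD, and 1557 and 2260 in RC. Gpnmb also fell under nobiletin (-2.53 ± 0.14, limma adjusted p = 0.00425), as did 0.128% of all genes. No other marker in these lists passed for NOB against HFD. Of the 10 macrophage markers, 6 lay above 0 and 4 below in that comparison, with a median of 0.08. The 1 tested cholangiocyte marker of 5, Sox9, was at -0.55 ± 0.21 and did not pass on the diet (adjusted p = 0.179), and it was lower in NOB than in RC (-1.46, adjusted p = 0.0407). Its linear level was 152 and 139 in NOB, 344 and 217 in HFD, and 376 and 428 in RC. Of 2 tested adipocyte markers of 4 none passed limma (1 at an unadjusted p under 0.05, beside 24.2% of all genes). The largest difference was Adipoq at -0.95 ± 0.24 (limma adjusted p = 0.0628). Their sums were 92.1 and 97.02 in NOB, 104 and 66.4 in HFD, and 166 and 108 in RC. The stellate, portal, macrophage and vascular smooth muscle sums were each lower in RC than in HFD at both times. The endothelial sum was lower in RC at ZT14 only. The median log2 level of the endothelial markers was lower at both times, at 6.73 and 6.98 in RC against 6.97 and 7.22 in HFD. The part of these cells in the matrix values was not tested. Liver identity was plain from Ttr, Apoa1 and Cyp2e1 at 13.9 to 14.4 on every array, while the single tested Alb probe lay near background at 4.77 to 5.39. Of 7 tested hepatocyte markers of 8, Cps1 fell on the diet (-1.41 ± 0.19, limma adjusted p = 0.0114). For HFD minus RC 6 of the 7 lay below 0 and 1 above, with a median of -0.10. Their sums were 65496 and 71216 in NOB at ZT14 and ZT2, 63687 and 64449 in HFD, and 71784 and 72125 in RC. The hepatocyte sum was thus lower in HFD than in RC at both times.

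For each gene that rose on the diet, the 3 genes with the most similar levels over the 6 arrays were sought among tested genes with a range of at least 1 on the log2 scale. Those of Timp1 were Gpnmb (Pearson r = 0.988, Spearman rho 0.829), Limk1 (0.987 and 0.600) and Sdcbp2 (0.983 and 0.543). For Col4a1 they were Bok, Maged2 and Rgs4 at r = 0.974 to 0.986. For Lum they were Lpgat1, Pcx and Tmem189 at r = 0.970 to 0.985, and for Dcn Pparg, Acat1 and Il1rn at r = 0.973 to 0.979. Each is the best of at least 1121 genes on 6 arrays that share their normalization, so it describes these arrays only.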

How the data were processed

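Liver RNA pools were measured on 6 Illumina bead arrays. GenomeStudio is named in the submitters' processing notes, with no version named there. Per the file headers, the deposited table held an average bead-signal intensity and a detection p-value for each of 45281 probes, without scaling. The authors' processed matrix held linear intensities with a median of 3.5 and a minimum of -15.9 in each column, so background subtraction and quantile normalization are read from the values, while the amount subtracted and any centring are unknown. Over 11487 probes detected everywhere, each column matched its own array at r = 0.935 to 0.954 after each probe's mean was removed, and other arrays at 0.328 at most.

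The signals were processed with neqc (offset 16) in limma 3.58.1 and R 4.3.3. Probes with a detection p under 0.01 on at least 2 arrays were kept. Symbols came from the platform's probe table: 34885 probes had 1, 18 several and 10378 none. Probes without a single symbol were left out. The brightest probe stood for a gene. The fit had 2 residual degrees of freedom, to which moderation added 4.82, and a false discovery rate of 0.05 was used. The fit alone was checked, for HFD minus RC, on data simulated at the normalized level. The steps before the fit were not simulated. Alternatives changed the background correction, the scaling, the filter, the choice of probe, the time term and the variance trend, used the authors' processed intensities, or dropped each array in turn.

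The matrix genes, the further lists and the tests were chosen with earlier results of these data known. All 10 genes are described. From each list, genes past the threshold are named (at most the 4 largest), or the largest difference where none passed. Single genes beyond that (Col4a2, Tgfb1, Alb, Ttr, Apoa1, Cyp2e1 and Acta1) were added after their values were seen. The arrays are few, which limits the precision of every value.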

Additional observations from a re-analysis of the deposited data

Results flagged for a closer look

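Differences between arms that pointed opposite ways at the 2 times, with at least 1.5-fold at one of them, were marked. None was tested, since each time had 1 array per arm. For Acta2, HFD minus RC was -0.16 at ZT14 and 0.996 at ZT2, which differ by -1.16. Also for Acta2, NOB minus RC was -1.63 at ZT14 and 0.19 at ZT2, which differ by -1.82. The RC pool of ZT14 enters both, and it was also the pool with the highest skeletal muscle markers. The part of muscle in these values was not tested. For Col3a1, the normalized levels gave NOB minus HFD as -0.80 at ZT14 and 0.24 at ZT2, which differ by -1.04, and NOB minus RC as -0.66 and 0.01, which differ by -0.67. These are differences from background values: Col3a1 was detected only in HFD and RC at ZT14, so the ZT2 values carry no sign. At ZT14 the bounds were at least 1.18-fold lower in NOB than in HFD and at least 1.07-fold lower than in RC.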

How the results depend on the processing

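Up to 17 alternatives were run for each comparison, 1 of which (detection p under 0.05) was chosen after seeing the data. Bounds for undetected levels within a time were also added after seeing the data; they left Col3a1 out of the genes past 1.5-fold in NOB at ZT14. The 4 genes called higher in HFD than in RC became 1 in the authors' processed intensities, 1 with no filter on dim probes and 2 with no time term. Leaving out single arrays gave 0 to 3: dropping HFD at ZT14 gave 0, HFD at ZT2 and RC at ZT14 gave 1 each, and RC at ZT2 gave 2. The 1 gene called lower in NOB than in HFD, Timp1, became 0 in the authors' intensities, 0 with no filter and 0 when detection on all 6 arrays was required, which drops Timp1. It was 0 to 1 without single arrays. For NOB minus RC the count was 0 to 1 without single arrays and 0 otherwise, and for ZT14 minus ZT2 it was 0 throughout. Signs of the called genes (Timp1, Col4a1, Lum and Dcn in HFD minus RC, and Timp1 in NOB minus HFD) did not turn under any alternative run. Over all genes, 584 calls for HFD minus RC ranged from 34 to 721 without single arrays and from 91 to 908 otherwise. The 14 for NOB minus HFD ranged from 0 to 41 and from 1 to 30, the 85 for NOB minus RC from 14 to 165 and from 1 to 158, and the 2 for ZT14 minus ZT2 from 1 to 11 and from 0 to 21. No paired analysis was possible because each group has 1 array, and time already is a term of the fit. A slide block was not run, as the headers give no slides. Other than the dropped arrays and genes, the cause was not tested. Signals near background limit Timp1, Col1a1, Col1a2 and Col3a1, and the probe ILMN_2710354 of Acta2.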
